A study of Mus musculus with 18 samples.

Results

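Nedd4, Btbd3, Stxbp6 and Qser1 are 4 of the 19752 mouse genes that the array measured with a probe set of exactly 1 symbol. They were chosen by their thymus and tagged spleen levels, which were high in regulatory T cells (Tregs) of the perinate thymus and differed less between perinate-tagged and adult-tagged Tregs of the spleen. The values of those arrays are therefore given here as descriptions without a test. The arrays of untagged spleen Tregs did not enter the choice, and the comparison between those groups was tested. The working name of the set, perinate thymus genes not kept in the spleen, describes them only in part. In perinate-tagged spleen cells Nedd4 and Btbd3 still lay above the adult-tagged cells on every array, as did 33.2% of all genes. Stxbp6 overlapped with the adult-tagged cells, and Qser1 lay below them on every array, as did 12.7% of all genes.

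The study compared Tregs sampled or tagged around birth with Tregs sampled or tagged in adult life. It used NOD mice, a strain prone to autoimmune diabetes, and 18 Affymetrix Mouse Gene 1.0 ST arrays in 6 groups of 3. Perinate thymus and adult thymus Tregs were CD4+GFP+ cells of male mice aged 4 days and 5 weeks, sorted on a MoFlo. The spleen Tregs came from female mice aged 60 days, sorted on a FACSAria, which carried Foxp3-eGFP-Cre-ERT2 and a Rosa26-YFP lineage reporter. All 4 spleen groups received 4 tamoxifen injections, which fell in days 0 to 10 of life in the perinate groups and in days 35 to 45 in the adult groups. Cells that were GFP+YFP+ are called perinate-tagged and adult-tagged here, and the GFP+YFP- bulk of the same treatments perinate untagged and adult untagged. Because Foxp3 drives the recombinase, the YFP tag marks cells that expressed Foxp3 while tamoxifen was present, and their descendants. Adult-tagged cells can therefore include Tregs made before day 35. As all spleen mice were aged 60 days, age at tagging and time since tagging cannot be told apart. The untagged bulk holds Tregs of any origin that did not recombine. Sex, sorter, tissue and age differ together between thymus and spleen and cannot be told apart, so each perinate to adult difference was taken within a tissue. Whether a replicate is 1 animal or a pool is not stated, so that p-values cover the spread between these samples only.

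Levels are log2 of the deposited intensity unless stated, group values are mean ± SD with n = 3, and differences are perinate minus adult on the log2 scale ± standard error (SE) of the fit. No read depth applies to arrays, and the precision is set by their number. As a guide to background, Y-linked genes on the female arrays that carry no Y signal, and Xist on the male arrays, read 3.95 to 6.30. Foxp3, which defines Tregs, read 11.88 to 12.40 over the 18 arrays. One array stood apart by its spread of values. The interquartile range over all probe sets was 2.08 in adult thymus replicate 2, against 2.67 and 2.82 in the other adult thymus arrays. In perinate thymus its mean was 3.03 ± 0.03. Another array goes against its label. Perinate-tagged replicate 2, labelled female, read 9.79 for the Y-linked gene Eif2s3y and 8.38 for Xist. The other 11 spleen arrays read 3.95 to 4.90 and 11.86 to 12.41. The male thymus arrays read 9.73 to 10.04 and 5.70 to 6.30, so that its Xist value lies between the ranges of both sexes. Whether cells of both sexes were mixed was not tested. The differences of the 4 genes, and list counts that changed, are given with and without these arrays, beside the result or among the alternatives.

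The genes have unlike roles. Nedd4 encodes an E3 ubiquitin ligase of the HECT class, which binds targets through WW domains and is turned on by adaptors such as Ndfip1 and Ndfip2. In mouse T cells Nedd4 is known to promote activation by marking the ligase Cbl-b for degradation, while its relative Itch restrains T helper cells. Btbd3 encodes a BTB domain protein known from mouse neurons, where it directs dendrites towards active inputs. Some relatives of Btbd3 serve as adaptors of Cullin 3 ubiquitin ligases. Stxbp6, also called amisyn, encodes a protein that binds syntaxins through a SNARE-like domain and has been described as a brake on vesicle fusion. Qser1 encodes a large DNA-binding protein that was found in human embryonic stem cells to keep DNA methylation valleys free of methylation, together with TET1 and against the methyltransferases DNMT3A and DNMT3B.

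Promoter sequences are shown for Nedd4 and Btbd3, whose levels followed each other most closely over the 18 arrays (Pearson r = 0.95, a description). They are the 250 bases before the annotated start, from RefSeq on GRCm38.p6, where all 4 genes had an entry. The build behind the deposited values is not given in the sources used here. The Nedd4 window lies at chr9:72662081-72662330 and the Btbd3 window at chr2:138256334-138256583, both on the plus strand. Capitals mark each match to the GC box GGGCGG, which is bound by Sp family factors. Every match runs on the opposite strand and so reads CCGCCC.
Nedd4: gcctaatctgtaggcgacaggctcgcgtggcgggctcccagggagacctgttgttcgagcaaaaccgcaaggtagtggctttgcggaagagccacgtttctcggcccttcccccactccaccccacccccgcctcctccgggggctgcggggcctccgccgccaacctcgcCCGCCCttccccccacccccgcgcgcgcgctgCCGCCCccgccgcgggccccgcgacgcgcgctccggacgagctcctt
Btbd3: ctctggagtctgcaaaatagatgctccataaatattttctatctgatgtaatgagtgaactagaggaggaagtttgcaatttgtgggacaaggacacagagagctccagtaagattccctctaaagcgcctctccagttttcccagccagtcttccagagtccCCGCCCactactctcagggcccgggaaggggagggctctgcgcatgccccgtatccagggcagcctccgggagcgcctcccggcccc
The Nedd4 window is 74.0% G or C with 32 CpG, and holds 2 GC boxes, which begin 79 and 47 bases before the start. The Btbd3 window is 55.6% G or C with 8 CpG, and holds 1 GC box, 87 bases before the start. The median of all 32851 windows in the table is 52.4% G or C and 6 CpG, and 32.7% of them hold a GC box on either strand.

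The table lists 6 windows for the 4 genes, and the others begin inside an annotated gene. The Qser1 window is 83.6% G or C with 42 CpG, and holds 5 GC boxes and 1 CREB motif (TGACGTC, in 2.78% of all windows). The Stxbp6 window is 65.2% G or C with 12 CpG, and holds none of the 10 motifs searched. A second window of Nedd4 holds a CCAAT box and a Tcf/Lef motif (CTTTGT, in 16.5% of all windows), and a second window of Btbd3 holds 3 CCAAT boxes (CCAAT, in 33.8%). Among the motifs that these windows do not hold are the E2F motif TTTCGCG (0.703% of all windows), the TATA box TATAAA (12.4%) and the Runx motif TGTGGT (14.0%), along with the Ets motif CCGGAAG (6.91%), the forkhead motif TGTTTAC (3.17%) and the E box CACGTG (6.02%). None of these motifs overlapped with another in the windows shown. A match is a description of letters, not a binding site.

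Nedd4 stood highest in perinate thymus Tregs. It read 9.66, 9.47 and 9.46 in perinate thymus, against 7.47, 7.11 and 6.75 in adult thymus. The 2 groups lie far apart. In the spleen it read 7.07, 7.04 and 7.44 in perinate-tagged cells, against 6.58, 6.42 and 6.75 in adult-tagged cells. The perinate-tagged arrays were again the higher ones, without overlap, but by a smaller step. It read 6.11, 5.68 and 5.91 in perinate untagged cells, against 6.47, 6.15 and 6.26 in adult untagged cells, so that here the perinate-treated arrays were the lower ones, also without overlap. All 3 perinate untagged arrays and 2 of the 3 adult untagged arrays lie inside the background range. On the linear scale Nedd4 averaged 740 ± 57.9 in perinate thymus, against 141 ± 34.9 in adult thymus. In the tagged cells the linear means were 147 ± 23.4 (perinate) and 96.3 ± 11.2 (adult), and in the untagged cells 60.2 ± 8.82 (perinate) and 78.7 ± 9.15 (adult). In the order of group means, perinate thymus was first by a gap of 2.02 between arrays. Perinate-tagged, adult thymus, adult-tagged and adult untagged followed, each overlapping with the next, and perinate untagged came last. In bulk samples such as these, fewer cells of a type and less RNA per cell cannot be told apart.

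Btbd3 read 8.86, 8.74 and 8.81 in perinate thymus, against 6.51, 6.56 and 6.47 in adult thymus. All perinate thymus arrays stood well above the rest of the series, and the adult thymus arrays were close to the spleen arrays. In the spleen it read 6.78, 6.86 and 6.75 in perinate-tagged cells, against 6.22, 6.40 and 6.46 in adult-tagged cells. The perinate-tagged arrays were higher without overlap, and also lay above all 3 adult thymus arrays. The untagged arrays read 6.54, 6.44 and 5.87 after perinate treatment, against 6.28, 6.19 and 5.96 after adult treatment, and these groups overlapped. The background range holds all 3 adult untagged arrays, 1 perinate untagged array and 1 adult-tagged array. On the linear scale Btbd3 averaged 446 ± 17.8 in perinate thymus and 91.6 ± 2.77 in adult thymus, and 111 ± 4.53 in perinate-tagged and 82.3 ± 6.89 after adult tagging. Its highest mean in a spleen group was 6.80, under the level of 7.05 (the median of all deposited values) that a gene needed in at least 1 group to enter a fit. Btbd3 therefore did not pass that filter in the spleen, and its spleen differences come from a fit of all 19752 genes. Nedd4 and Stxbp6 passed it in the spleen through the perinate-tagged group alone, with means of 7.18 and 7.12, and Qser1 passed in all groups. All 4 genes passed in the thymus.

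Stxbp6 read 8.61, 8.52 and 8.56 in perinate thymus, against 6.47, 7.45 and 6.51 in adult thymus. The perinate arrays were close to each other and higher, while adult replicate 2, the array with the narrow spread of values, stood above the other adult thymus arrays. In the spleen it read 6.89, 7.32 and 7.15 in perinate-tagged cells, against 6.93, 6.90 and 6.98 in adult-tagged cells. These groups overlapped, with perinate-tagged replicate 2, the array that goes against its female label, as the lowest of the 6. The untagged arrays read 6.21, 6.22 and 6.06 after perinate treatment, against 6.33, 6.80 and 6.42 after adult treatment, lower after perinate treatment without overlap. All 3 perinate untagged arrays lie inside the background range, and the adult untagged arrays lie above it. On the linear scale Stxbp6 averaged 378 ± 11.9 in perinate thymus and 118 ± 48.8 in adult thymus, and 140.4 ± 20.8 in perinate-tagged and 123 ± 3.08 after adult tagging. In the order of group means, perinate thymus came first by a gap of 1.20, followed by perinate-tagged, adult-tagged, adult thymus and adult untagged, each overlapping with the next, and then perinate untagged.

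Qser1 was the only one of the 4 that was lower in perinate-tagged than in adult-tagged cells. It read 9.62, 9.65 and 9.55 in perinate thymus, against 8.43, 7.0 and 8.62 in adult thymus. The perinate arrays were higher without overlap, and adult replicate 2 was far below the other adult arrays. In the spleen it read 8.36, 7.86 and 8.12 in perinate-tagged cells, against 8.49, 9.09 and 8.77 in adult-tagged cells. Here every perinate-tagged array lay below every adult-tagged one. The untagged arrays read 8.71, 7.55 and 7.76 after perinate treatment, against 8.71, 7.90 and 7.91 after adult treatment, with broad overlap and with replicate 3 high in both groups. On the linear scale Qser1 averaged 780.2 ± 26.4 in perinate thymus and 289 ± 142 in adult thymus, and 280.2 ± 48.3 in perinate-tagged and 447 ± 94.1 after adult tagging. Perinate thymus came first in the order by a gap of 0.46, and the other 5 groups overlapped in a chain from adult-tagged down to perinate untagged. The second Qser1 probe set followed the first over the 18 arrays (r = 0.96). It gave differences of 1.23 in the thymus and −0.55 in the tagged cells, with the same directions.

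**Figure D1:**
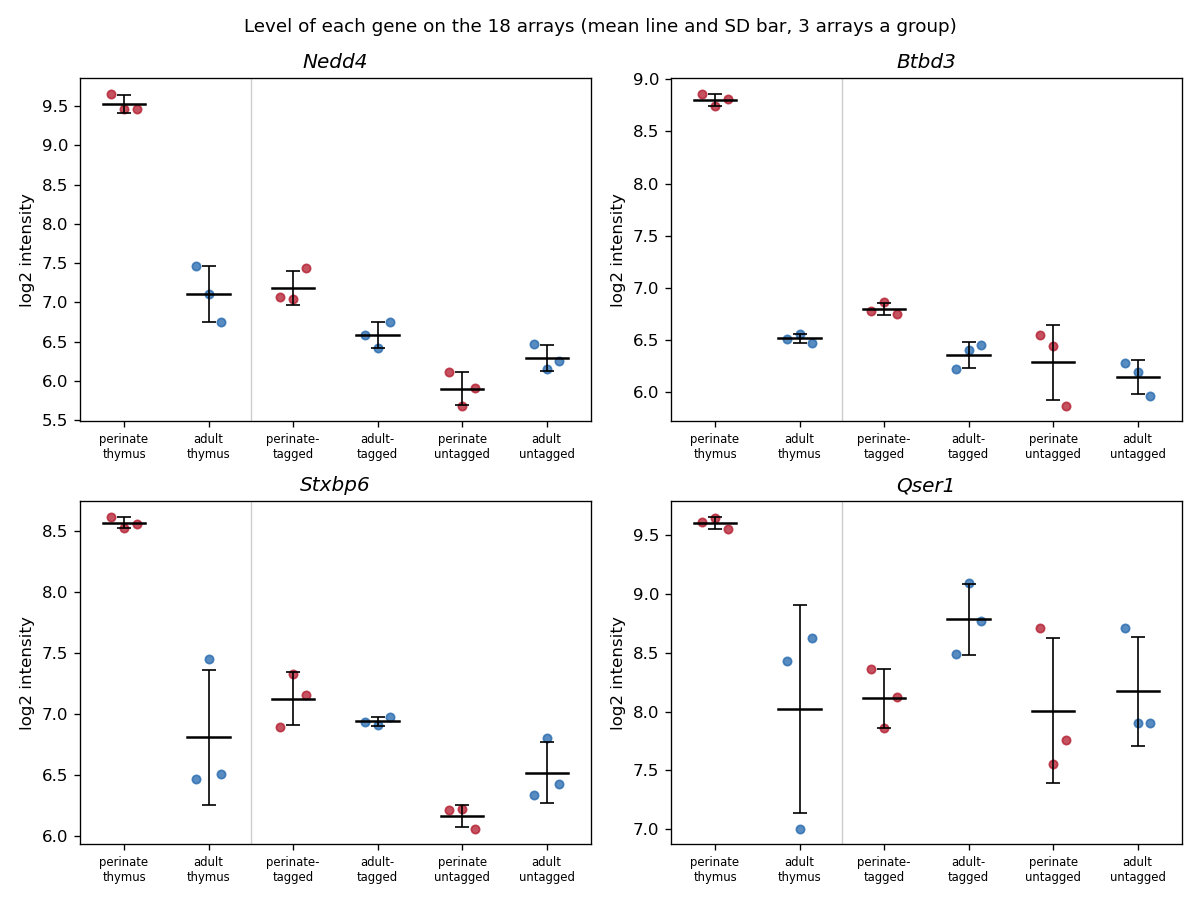
Level of each gene on every array, as log2 intensity (vertical axes, which do not start at 0 and differ between panels), for the 6 groups named below the axis; points are arrays, lines the mean of 3 and bars the SD. Perinate thymus is the highest group for all 4 genes, and Qser1 is lower in perinate-tagged than in adult-tagged cells.

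The thymus differences that chose the genes were among the larger ones on the array. Nedd4 differed by 2.42 ± 0.18 (5.35-fold), Btbd3 by 2.28 ± 0.11 (4.87-fold), Stxbp6 by 1.76 ± 0.25 (3.38-fold) and Qser1 by 1.59 ± 0.37. They ranked 4, 5, 34 and 65 from the top of the 10650 genes fitted, where the median difference was 0.17. Groups did not overlap for any of the 4, as for 36.9% of all genes, which were higher in perinate thymus on every array. That share stands beside the count as background, and nothing is read from it, since the choice used these arrays. Without adult thymus replicate 2, Qser1 differed by 1.08 and Stxbp6 by 2.075, while Nedd4 (2.42) and Btbd3 (2.31) hardly moved. With each array's interquartile range as a covariate, the difference of Qser1 was 0.52 and that of Stxbp6 2.44. That range was wider on every perinate thymus array (3.00 to 3.06) than on any adult thymus array (2.08 to 2.82). It was also wider in perinate-tagged (2.94 to 3.12) than in adult-tagged cells (2.49 to 2.88). The covariate and the perinate to adult step therefore cannot be told apart in either comparison.

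In the tagged spleen cells the differences were smaller, and for Qser1 of the other sign. Nedd4 differed by 0.60 ± 0.15 (1.52-fold), Btbd3 by 0.44 ± 0.16 (1.35-fold) and Stxbp6 by 0.18 ± 0.14 (1.14-fold), and Qser1 by −0.67 ± 0.28. Set against the thymus difference on the log2 scale, that is 24.8% for Nedd4, 19.1% for Btbd3 and 10.5% for Stxbp6. The adult-tagged means of Nedd4 (6.58) and Btbd3 (6.36) lie near the top of the background range (6.30). So does the adult thymus mean of Btbd3 (6.52). Differences near that level may be compressed, so the shares need not measure how much is kept. Nedd4 and Btbd3, 2 of the 4, were higher on every perinate-tagged array, as were 33.2% of all genes, and Qser1 was lower on every one, as were 12.7%. By size of the difference Nedd4 ranked 1030, Stxbp6 4276 and Qser1 10237 of the 10350 genes fitted in the spleen, whose median difference was 0.12. Without perinate-tagged replicate 2, the differences were 0.66 for Nedd4, 0.44 for Btbd3, 0.30 for Stxbp6 and −0.79 for Qser1, a change of over 1.5 times for Stxbp6. Without perinate-tagged replicate 4, the Stxbp6 difference was 0.083. The thymus difference exceeded that of the tagged cells by 1.82 ± 0.24 for Nedd4, 1.85 ± 0.21 for Btbd3, 1.57 ± 0.28 for Stxbp6 and 2.26 ± 0.49 for Qser1. By this excess the genes ranked 9, 7, 19 and 3 of the 10889 genes fitted over all 18 arrays. Without adult thymus replicate 2 the excess was 1.75 for Qser1 and 1.89 for Stxbp6.

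The comparison of the untagged groups asked whether the timing of tamoxifen itself went with a difference in cells that did not carry the tag, and it is the test that the choice of the genes left free. None of the 4 genes passed (limma, Benjamini-Hochberg adjustment over all genes fitted), and 0% of the 10350 genes did, with 380 at an unadjusted p under 0.05. Nedd4 differed by −0.39 ± 0.15 (95% confidence interval −0.72 to −0.064, adjusted p = 0.995, unadjusted p = 0.0223). Stxbp6 differed by −0.35 ± 0.14 (interval −0.662 to −0.047, adjusted p = 0.995, unadjusted p = 0.0269). Both were lower on every perinate untagged array, as were 1.46% of all genes. For Btbd3 the difference was 0.14 ± 0.16 (interval −0.207 to 0.488, adjusted p = 0.931 by limma), and for Qser1 −0.16 ± 0.28 (interval −0.759 to 0.433, adjusted p = 0.995). Since Nedd4, Stxbp6 and Btbd3 lie partly or wholly inside the background range in these cells, and since Nedd4 and Stxbp6 entered the fit through the perinate-tagged group alone, these arrays can say little about a lower level there. Without adult untagged replicate 4, the Stxbp6 difference was −0.21. With the same-numbered arrays as pairs in a fit of the 6 untagged arrays, an alternative added after the data were seen, 49 genes passed the limma test and the 4 genes did not (adjusted p = 0.665 for Nedd4, 0.91 for Btbd3, 0.724 for Stxbp6 and 0.93 for Qser1). Small nucleolar RNA genes moved with these groups: the median of 50 of them per array was 8.70 to 9.54 in perinate untagged, against 8.22 to 8.69 in adult untagged. Their part in the result was not tested. At 3 arrays a group, no exact permutation test of 1 gene can give a p below 0.1.

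**Figure D2:**
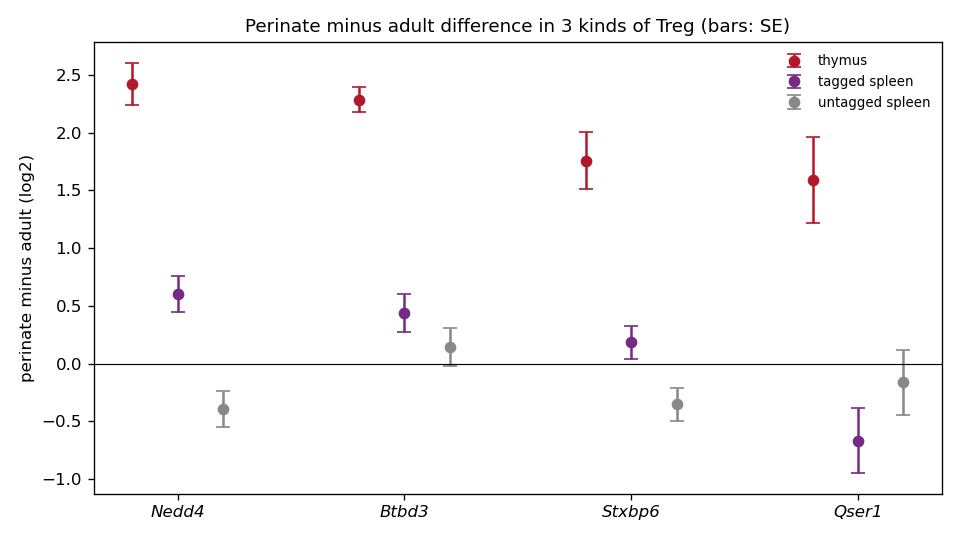
Perinate minus adult difference of each gene (vertical axis, log2) in thymus, tagged spleen and untagged spleen Tregs; points are the differences of group means and bars their SE from the fit. The thymus differences lie between 1.59 and 2.42, and those of both kinds of spleen cells between −0.67 and 0.60.

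Set against the untagged cells of the same treatment, perinate-tagged cells read higher for Nedd4, Stxbp6 and Btbd3. The perinate untagged means of these genes (5.90, 6.16 and 6.28) lie inside the background range, so that no fold is given. The tagged minus untagged difference after perinate treatment was 1.28 ± 0.15 for Nedd4, 0.96 ± 0.14 for Stxbp6, 0.51 ± 0.16 for Btbd3 and 0.11 ± 0.28 for Qser1. Nedd4, Stxbp6 and Btbd3, 3 of the 4, were higher on every perinate-tagged array, as were 19.7% of all genes. After adult treatment the same difference was 0.29 ± 0.15 for Nedd4, 0.42 ± 0.14 for Stxbp6, 0.22 ± 0.16 for Btbd3 and 0.61 ± 0.28 for Qser1. Stxbp6 alone was higher on every adult-tagged array, as were 6.70% of all genes. These values are descriptions, since the tagged arrays entered the choice. Tagged and untagged arrays after perinate treatment share replicate numbers 4 and 5, and those after adult treatment share number 3. Whether these are sorts of the same mice is not stated, and the SE treats the arrays as independent. Without perinate-tagged replicate 2, the perinate differences were 1.34 for Nedd4, 1.07 for Stxbp6, 0.52 for Btbd3 and −0.02 for Qser1. Without perinate untagged replicate 5, the Btbd3 difference after perinate treatment was 0.30, and without adult untagged replicate 5 that after adult treatment was 0.12.

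Many genes that were high in perinate thymus were also higher in perinate-tagged spleen cells. Of 324 genes that passed the limma test in the thymus, more than 2-fold higher in perinate cells and without overlap, 302 were fitted in the spleen. Of these, 195 (64.6%) were higher in perinate-tagged cells past an adjusted p of 0.05 (limma), 0 were lower and 107 (35.4%) passed in neither direction. The 4 genes were not taken out of the class. The share leaves out class genes that missed the spleen filter, such as Btbd3. It can count genes that passed that filter through the perinate-tagged group alone. No share under the other scalings is given here. Over all genes fitted, 16.0% were called higher and 3.50% lower in perinate-tagged cells. Without adult thymus replicate 2 the class held 240 genes, of which 167 of 217 fitted in the spleen (77.0%) were higher in perinate-tagged cells and 0 lower. Without perinate-tagged replicate 2 it was 196 of 302 (64.9%), and without both arrays 161 of 217 (74.2%). Igf2bp3, an RNA-binding protein of the fetal blood program, is named for comparison. It read 9.63 ± 0.10 in perinate thymus against 6.42 ± 0.12 in adult thymus. In the spleen it read 8.22 ± 0.33 in perinate-tagged against 5.68 ± 0.26 in adult-tagged cells. The difference of Igf2bp3 was 3.21 ± 0.12 in the thymus (adjusted p = 3.39e-05, limma) and 2.54 ± 0.17 in the tagged cells (adjusted p = 1.52e-06). Over all genes fitted in the thymus, 18.5% were called higher and 5.84% lower in perinate cells. Of the fetal program list that holds Igf2bp3, 3 of 6 fitted genes rose in perinate thymus and 0 fell, and 2 of 4 rose in perinate-tagged cells and 0 fell. Besides Igf2bp3 these were the zinc finger gene Plagl1 in the thymus (0.86 ± 0.10, adjusted p = 0.00159, limma) and the transcription factor Arid3a, which differed by 0.76 ± 0.11 in the thymus (adjusted p = 0.00282) and by 0.53 ± 0.13 in the tagged cells (adjusted p = 0.0092).

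**Figure D3:**
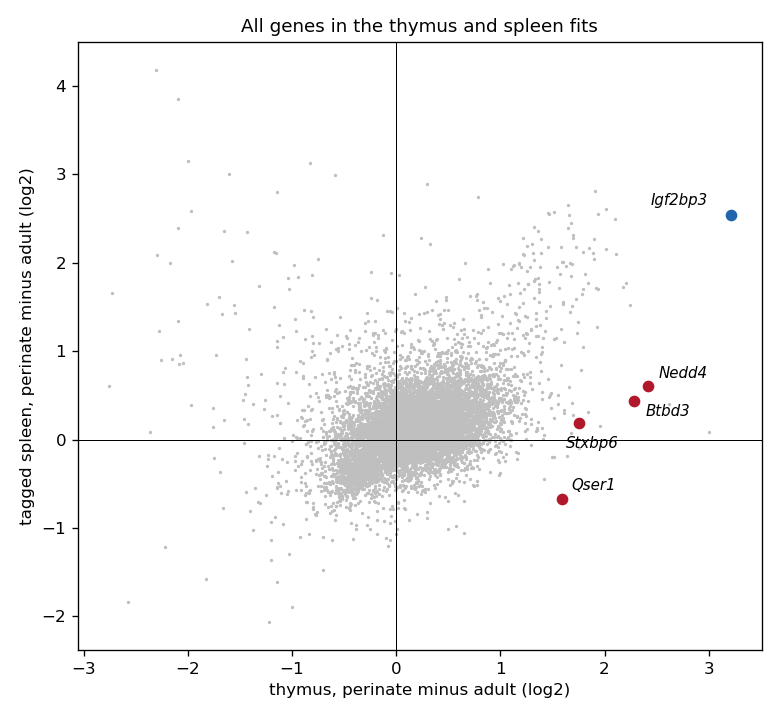
Perinate minus adult difference in the thymus (horizontal axis, log2) and in the tagged spleen cells (vertical axis, log2) for the 10111 genes in both fits (grey), with Igf2bp3 in blue and the 4 genes in red (Btbd3 from the fit of all genes). The 4 genes lie far right, with Nedd4 and Btbd3 above the horizontal line, Stxbp6 near it and Qser1 below it. Igf2bp3 lies high on both axes.

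Few relatives of Nedd4 passed the test. Of 15 ligases of the NEDD4 family and their adaptors on the array, 12 were fitted. In the thymus 1 rose in perinate cells, 1 fell and 10 did not pass, with a median difference of 0.09 (−0.1 under quantile normalization, −0.067 with the interquartile range as a covariate, and 0.17 over all genes, of which 18.5% were called higher and 5.84% lower). Ndfip2, an adaptor that activates NEDD4-type ligases, rose to 10.33 ± 0.01 in perinate thymus against 9.88 ± 0.04 in adult thymus (0.44 ± 0.10, adjusted p = 0.0206, limma). Arrdc4, an arrestin-domain adaptor, fell to 7.88 ± 0.14 against 8.46 ± 0.14 (−0.575 ± 0.13, adjusted p = 0.0187, limma). Between the tagged groups 0 of 12 rose and 1 fell (over all genes 16.0% and 3.50%). That gene was Nedd4l, the closest relative of Nedd4. It read 7.30 ± 0.20 after perinate and 8.36 ± 0.21 after adult tagging (−1.07 ± 0.33, adjusted p = 0.0371, limma). Both thymus calls were lost under 5 of 15 alternatives. The call of Nedd4l was lost under 9 of 14 alternatives, among them leaving out any 1 of the 6 tagged arrays.

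Other E3 ligases known from T cell tolerance were looked at with them. Of 8 fitted genes, 2 rose in perinate thymus and 0 fell, near the shares of all genes (18.5% and 5.84%). Under quantile normalization and with the interquartile range as a covariate 1 was higher and 1 lower, and without adult thymus replicate 2 it was 3 and 1. Sh3rf1, a scaffold of stress kinase signalling, differed by 0.76 ± 0.18 (adjusted p = 0.0203, limma), and Traf6, the ligase that relays Toll-like and interleukin-1 receptor signals, by 0.73 ± 0.13 (adjusted p = 0.00724). The Sh3rf1 call was lost under 5 of 15 alternatives. Perinate-tagged cells had 0 higher and 1 lower (over all genes 16.0% and 3.50%). Dtx1, a ligase linked to Notch signalling and T cell anergy, differed by −0.77 ± 0.25 (adjusted p = 0.045, limma), a call lost under 11 of 14 alternatives.

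Of the other BTBD proteins and Cul3, 11 were fitted in the thymus and 12 in the spleen. In the thymus 1 rose and 0 fell (over all genes 18.5% and 5.84%). That gene, Btbd1, read 9.28 ± 0.08 in perinate and 8.46 ± 0.27 in adult cells (0.82 ± 0.15, adjusted p = 0.00971, limma). Between the tagged groups 2 rose and 0 fell, near the shares of all genes (16.0% and 3.50%). Btbd10 differed by 0.78 ± 0.20 (adjusted p = 0.0134, limma) and Btbd1 by 0.40 ± 0.13 (adjusted p = 0.0421). The Btbd1 call in the tagged cells was lost under 9 of 14 alternatives. Without perinate-tagged replicate 2 the tagged counts were 2 higher and 2 lower, and under quantile normalization 1 and 4. The list's median difference was 0.245 in the thymus (−0.13 with the interquartile range as a covariate) and −0.075 in the tagged cells, against 0.17 and 0.12 over all genes.

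SNARE proteins and syntaxin-binding proteins, a wider class than the syntaxins that Stxbp6 binds, moved in both directions. Of 31 fitted in the thymus, 7 rose in perinate cells, 3 fell and 21 did not pass, near the shares of all genes (18.5% higher and 5.84% lower), with a median difference of 0.23 (−0.071 with the interquartile range as a covariate). The counts were 3 higher and 4 lower under quantile normalization, 2 and 4 with the covariate, and 10 and 4 without adult thymus replicate 2. Stx2, a syntaxin of the plasma membrane, read 8.42 ± 0.15 in perinate and 7.52 ± 0.09 in adult thymus (0.90 ± 0.12, adjusted p = 0.0028, limma). Vti1a, a SNARE of the Golgi and endosomes, differed by 1.11 ± 0.29 (adjusted p = 0.0292), Vamp1 by 0.83 ± 0.24 (adjusted p = 0.0396) and Stx16 by 0.80 ± 0.21 (adjusted p = 0.0286). The calls of Vti1a and Vamp1 were lost under 7 of 15 alternatives each and that of Stx16 under 6, and that of Stx2 under 0. Among 30 fitted in the spleen, 5 rose in perinate-tagged cells and 1 fell (over all genes 16.0% and 3.50%), with other genes in the lead. Stx11, the syntaxin that cytotoxic lymphocytes need to release granules, read 9.77 ± 0.23 in perinate-tagged cells, against 8.59 ± 0.10 after adult tagging (1.18 ± 0.20, adjusted p = 0.000812, limma). Vamp7 differed by 0.80 ± 0.20 (adjusted p = 0.0119), Vamp3 by 0.71 ± 0.12 (adjusted p = 0.00123) and Ykt6 by 0.63 ± 0.14 (adjusted p = 0.00792). With that covariate, 0 of these SNARE genes passed in the tagged cells.

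Among genes of DNA methylation, the process in which Qser1 acts, 5 of 11 fitted rose in perinate thymus and 0 fell, where 18.5% of all genes were called higher and 5.84% lower. Their median difference was 0.35. The counts were 4 higher and 0 lower under quantile normalization, 3 and 1 with the interquartile range as a covariate, and 5 and 0 without adult thymus replicate 2. Dnmt3a, which writes new methylation, read 9.69 ± 0.12 in perinate and 8.44 ± 0.30 in adult thymus (1.25 ± 0.17, adjusted p = 0.00242, limma). Dnmt1, which copies methylation after replication, read 10.42 ± 0.12 and 9.44 ± 0.05 (0.98 ± 0.11, adjusted p = 0.00137), and its partner Uhrf1 differed by 1.54 ± 0.20 (adjusted p = 0.00224). Tet3, which oxidises methylcytosine, differed by 1.497 ± 0.41 (adjusted p = 0.034), and by 0.97 ± 0.16 without adult thymus replicate 2 (adjusted p = 0.00103). Of the same 11 genes, 3 rose in perinate-tagged cells and 0 fell (over all genes 16.0% and 3.50%), namely Uhrf1 by 1.15 ± 0.15 (adjusted p = 9.47e-05, limma), Dnmt1 by 0.525 ± 0.14 (adjusted p = 0.0162) and Mbd4 by 0.41 ± 0.13 (adjusted p = 0.0384). The calls of Dnmt1 and Mbd4 in the tagged cells were lost under 6 and 8 of 14 alternatives, and that of Tet3 in the thymus under 5 of 15. For Dnmt3a the thymus difference exceeded the tagged one by 0.91 (adjusted p = 0.0264, limma) and for Tet3 by 1.69 (adjusted p = 0.0297).

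The genes most like each of the 4 over the 18 arrays are given as descriptions. Arrays of a group share their cell type, so the correlation rests largely on the step between perinate thymus and the rest. For Nedd4 they were Jup (r = 0.96, and 0.93 over the 12 spleen arrays), Map3k8 (0.96, spleen 0.86) and Mbnl3 (0.96, spleen 0.82). For Btbd3 they were Plag1 (0.97, spleen 0.71), Pask (0.965, spleen 0.77) and Cerk (0.95, spleen 0.70). For Stxbp6 they were Tln2 (0.96, spleen 0.83), Homer2 (0.95, spleen 0.77) and Nedd4 itself (0.93, spleen 0.82). For Qser1 they were Polr1b (0.95, spleen 0.91), Tmem260 (0.92, spleen 0.88) and Ube4b (0.92, spleen 0.91). Among the 4 genes, Nedd4 followed Btbd3 (r = 0.95, spleen 0.68) and Stxbp6 (r = 0.93, spleen 0.82), and Btbd3 followed Stxbp6 (r = 0.92, spleen 0.62). Qser1 went less with the others, with r of 0.68 with Nedd4, 0.71 with Btbd3 and 0.57 with Stxbp6, and 0.25, 0.16 and 0.18 over the spleen arrays.

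Markers of other cells and states moved with the groups as well. Over all genes fitted, 18.5% were called higher and 5.84% lower in perinate thymus, and 16.0% and 3.50% in perinate-tagged cells. All 9 dividing cell markers were higher in perinate thymus, and all 9 in perinate-tagged cells, past an adjusted p of 0.05 (limma). Their mean level per array was 9.53 to 9.76 in perinate thymus against 7.86 to 8.24 in adult thymus, and 9.79 to 9.89 in perinate-tagged against 7.04 to 7.77 in adult-tagged cells. Markers of recirculating and effector Tregs went opposite ways: 6 of 8 were lower in perinate thymus, and 5 of 8 were higher in perinate-tagged cells, with 1 lower. Their mean was 8.55 to 8.64 in perinate thymus against 9.40 to 10.10 in adult thymus. Cxcr3, a homing receptor of effector cells, differed by −2.73 ± 0.17 in the thymus (adjusted p = 0.000183, limma), and Gzmb, the granule protease, by −2.31 ± 0.22 (adjusted p = 0.000731). In the tagged cells Gzmb differed by 4.18 ± 0.45 (adjusted p = 1.84e-05, limma), the largest rise of that list, of which 1 gene fell there. Their part in the differences of the 4 genes was not tested.

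Markers of immature thymocytes averaged 6.90 to 7.01 in perinate thymus against 7.23 to 7.31 in adult thymus, and Rag2, Dntt and Arpp21 lay in the background range in all 6 groups. Of the 3 fitted, Cd8a was lower in perinate thymus (−0.61 ± 0.11, adjusted p = 0.00735, limma), and all 3 were lower without adult thymus replicate 2. Epithelium and stroma markers averaged 6.85 to 6.97 in perinate thymus against 6.96 to 7.32 in adult thymus, with 0 of 6 past the test (1 higher and 1 lower without adult thymus replicate 2) and Krt5 in the background range in every group. B cell markers averaged 6.20 to 6.31 in perinate thymus against 6.54 to 6.67 in adult thymus, with Ms4a1, Cd79a and Blnk in the background range. None of the 6 myeloid markers on the array reached the level needed for the fit. The part of these cells in the differences of the 4 genes was not tested. Of the 6 genes of the Treg gate, 0 passed in the thymus, and in the tagged cells Il2ra, a receptor chain for interleukin-2, was lower in perinate-tagged cells (−0.39 ± 0.12, adjusted p = 0.0416, limma), a call lost under 8 of 14 alternatives. The 1 erythroid marker fitted, Slc4a1, passed in neither comparison. Single markers of other cells were higher in perinate-tagged cells, Epcam at 7.54 ± 0.10 against 6.47 ± 0.29 in adult-tagged cells (adjusted p = 0.00502, limma) and Cd79b (0.66 ± 0.14, adjusted p = 0.00476), while Krt5 and Ms4a1 were in the background range. Epcam was the 1 of 5 fitted epithelium and stroma markers that passed, and the median difference of that list was −0.347.

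**Figure D4:**
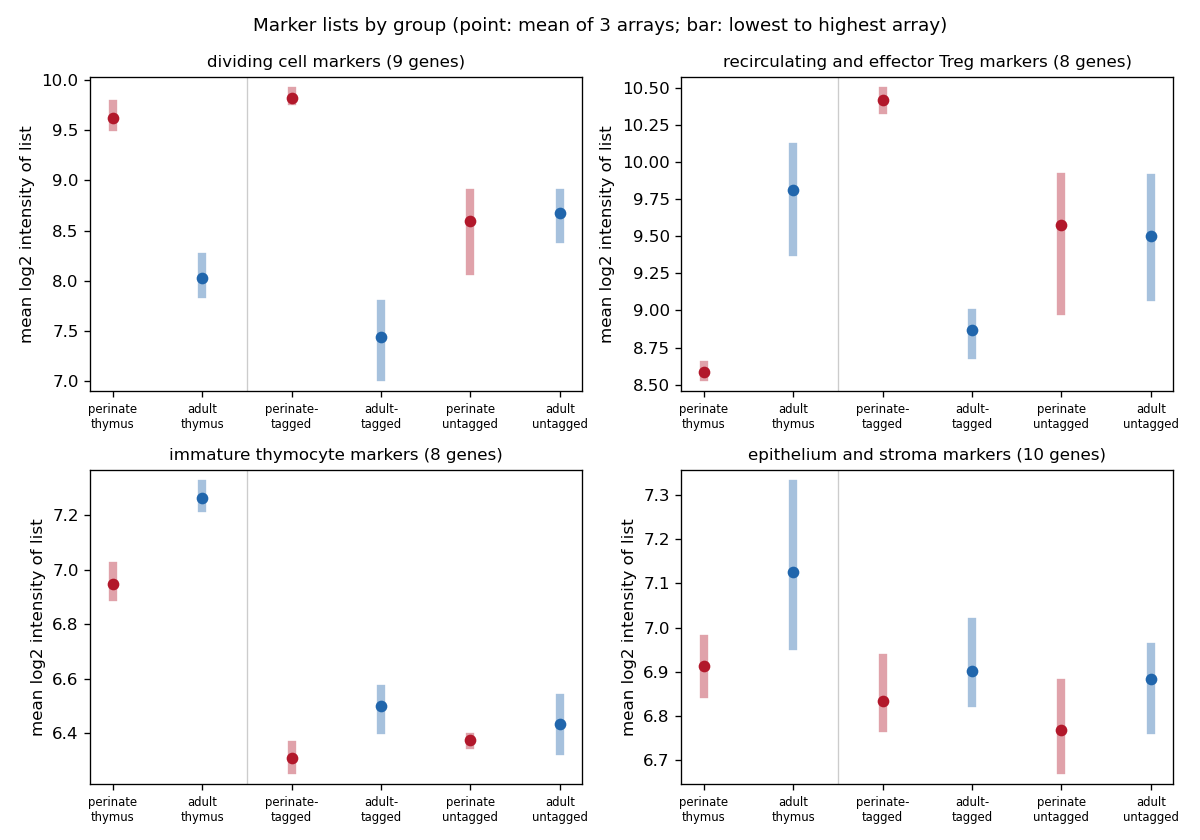
Mean log2 intensity of 4 marker lists per group (vertical axes, which do not start at 0 and differ between panels); points are the mean of 3 arrays and bars run from the lowest to the highest array. Dividing cell markers are high in perinate thymus and perinate-tagged cells, and effector markers low in perinate thymus and high in perinate-tagged cells.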

How the data were processed

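RNA of sorted Tregs was hybridised to 18 arrays in 6 groups of 3. The authors deposited probe set intensities, which the submitters' processing notes credit to Affymetrix Power Tools and RMA, without versions or a list of the arrays normalized together. They are on a linear scale (6.81 to 18850), and log2 was taken with no pseudocount and no further normalization. Of 24922 probe sets, 21425 carry 1 symbol, 1399 several and 2098 none. The probe set with the highest mean was kept per gene, which gave 19752 genes, and 21347 probe sets were matched to RefSeq by Entrez ID with 0 symbols changed.

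A gene entered a fit where a group mean was at or above the median deposited value (132.65, log2 7.05). Contrasts were fitted with limma 3.58.1 in R 4.3.3 (lmFit, eBayes, two-sided, Benjamini-Hochberg, threshold 0.05) over 12 spleen arrays (10350 genes), 6 thymus arrays (10650) or all 18 (10889). The code was tested on simulated data. Python 3.11.15 with matplotlib 3.10.9 drew the figures.

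The members and the 15 gene lists were chosen with earlier results of these data known. The text names the 4 genes and, from each list in the thymus and tagged contrasts, up to 4 genes past 0.05 whose groups do not overlap, by size (where none passes, those with the lowest p), and for each of the 4 genes the 3 with the highest r, leaving out predicted genes and small RNAs. Of the markers, those that bear on the 4 genes are named. Igf2bp3, Foxp3 and the sex-linked genes are named as checks.

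Same-numbered untagged arrays deviated together from their group means (r = 0.62, 0.13 and 0.45). Replicates 4 and 5, of unlike number, also did (r = 0.28 and 0.29), against −0.63 to −0.27 for the other unlike numbers. The correlations therefore do not settle whether the numbers pair the arrays. The main fit used no pairing, and pairing by number was an alternative only. The labels do not state such a pairing. Thymus numbers did not pair the arrays (r of −0.05, 0.07 and 0.12), and the tagged groups share 1 number. Tried as alternatives were the filter, the variance prior, quantile normalization, median centring, array weights, the interquartile range as a covariate, the probe sets averaged, the arrays in the fit, the replicate block and leaving out each array. The fetal liver and bone marrow chimeras in the series text were not analysed here.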

Additional observations from a re-analysis of the deposited data

Results flagged for a closer look

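Nedd4 differed by 0.601 between perinate-tagged and adult-tagged cells and by −0.392 between perinate untagged and adult untagged cells, with every array of the perinate group above in the tagged cells and below in the untagged cells. Qser1 differed by −0.668 in the tagged cells and by 1.587 in the thymus, with every array on opposite sides. Neither opposition was tested, since the choice of the genes used these arrays.

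Among the other genes named or listed, the thymus difference and the tagged spleen difference differed in the limma fit of all 18 arrays as follows. The thymus difference was above the tagged one for Dnmt3a by 0.906 (adjusted p = 0.0264) and for Tet3 by 1.693 (adjusted p = 0.0297). It was below the tagged one for Gzmb (−6.49, adjusted p = 1.45e-06), Klrg1 (−5.95, adjusted p = 1.27e-05), Cxcr3 (−4.39, adjusted p = 1.45e-06), Itgae (−3.06, adjusted p = 0.00116) and Icos (−2.98, adjusted p = 1.02e-06), which are effector Treg markers (limma). It was also below for Stx11 (−1.35, adjusted p = 0.00395), Epcam (−1.01, adjusted p = 0.0493) and the dividing cell marker Mki67 (−1.01, adjusted p = 0.0384) by limma. The other dividing cell markers named by the rule did not pass this test. Without adult thymus replicate 2 the thymus difference of Tet3 was 0.968 instead of 1.497, and its excess without that array is not given. No test for a single outlying array was run within the groups of 3.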

How the results depend on the processing

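For the thymus, tagged, excess and untagged differences, 254 values of the 4 genes were recomputed. Of these, 239 moved by less than the spread between replicates or, where tested, kept direction and side of the threshold. Another 12 moved by more and 3 reversed. The filter, the variance prior, the arrays in the fit and the thymus replicate block cannot move a difference of group means. Averaging the probe sets can move only Qser1. The 239 include such values, so that count does not measure stability. With array weights, the untagged difference of Btbd3 was −0.04, the thymus difference of Nedd4 2.084, and the excess of the thymus over the tagged difference 2.248 for Nedd4 and 1.765 for Qser1. Under quantile normalization the Btbd3 differences were 2.342 (thymus), 0.574 (tagged) and 1.768 (excess), and under median centring the thymus one was 2.387. With the interquartile range as a covariate they were 2.444 for Stxbp6 and 0.523 for Qser1 in the thymus and 0.555 for Btbd3 in the tagged cells. The cause was not tested. Leaving out 1 array at a time gave, in the thymus, 2.24 to 2.6 for Nedd4, 2.257 to 2.314 for Btbd3, 1.586 to 2.075 for Stxbp6 and 1.079 to 1.89 for Qser1. In the tagged cells it gave 0.473 to 0.685, 0.368 to 0.486, 0.083 to 0.299 and −0.817 to −0.514 in the same order of genes. The excess was 1.639 to 1.999, 1.798 to 1.917, 1.402 to 1.89 and 1.748 to 2.558, and the untagged difference −0.496 to −0.283, 0.01 to 0.348, −0.448 to −0.213 and −0.515 to 0.105. The last changed sign without adult untagged replicate 3 (0.105) and without perinate untagged replicate 4 (0.065). The tagged minus untagged difference of Qser1 after perinate treatment (0.11) changed sign without perinate-tagged replicate 2 or perinate untagged replicate 5 (−0.018 each) and without perinate untagged replicate 4 (−0.122), within a range of −0.122 to 0.458. The replicate block left the untagged differences as they were (adjusted p = 0.869 for Nedd4, 0.86 for Btbd3, 0.869 for Stxbp6 and 0.919 for Qser1, limma) and changed no call of the 4 genes. No paired analysis was possible for the tagged groups because they share 1 replicate number. In the thymus, where the numbers share no more than a number, the block left the values unchanged.

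Scaling moved the median difference of all genes by −0.169 (quantile), 0.12 (median centring) and −0.183 (interquartile range) in the thymus, and by −0.155, 0.066 and −0.133 in the tagged cells. In the thymus 1967 genes were higher and 622 lower, against 1216 and 1062 under quantile normalization, 2152 and 324 under median centring and 1128 and 1395 with the covariate. In the tagged cells 1658 were higher and 362 lower, against 1064 and 894, 1967 and 215, and 305 and 71. The covariate separates the perinate from the adult arrays in both comparisons, so its counts cannot be told apart from a loss of the group difference. Calls ran from 707 to 4388 in the thymus and from 906 to 2052 in the tagged cells when 1 array was left out. With array weights they were 1566 and 5904. List counts without adult thymus replicate 2 or perinate-tagged replicate 2 were added after seeing the data. Beside those in the report, higher and lower calls without the first were 1 and 1 for BTBD genes, 1 and 6 for effector markers and 0 and 1 for Treg gate genes in the thymus. Without the second they were 1 and 0 for NEDD4-family genes, 0 and 0 for the other E3 ligases and 5 and 0 for SNARE genes in the tagged cells. Untagged calls were 0 except 5 without adult untagged replicate 3 and 49 with the block over 6 arrays. The median difference of the NEDD4-family list in the thymus was −0.1 under quantile normalization and −0.067 with the covariate. List counts changed most in the tagged cells with array weights, with 10 NEDD4-family genes and 18 SNARE genes called. Arrays have no depth. In untagged cells Nedd4, Btbd3 and Stxbp6 lie partly or wholly inside the background range.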
